A study of Homo sapiens with 4 samples.

Results

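The 10 genes described here encode 7 integrin chains of lymphocytes and 3 adhesion ligands, ICAM2 and ICAM3, which bind the integrin LFA-1, and CD58, which binds CD2. The integrin chains are the alpha chains ITGAL, ITGA4, ITGA5, ITGA6 and ITGAE and the beta chains ITGB1 and ITGB2. Members were chosen by name, though with earlier results of these data known. All 10 were found by their GENCODE 29 symbol among the 28274 genes of the table. RNA was sequenced, from total RNA, in J-gammal, a human cell line by the labels. There were 2 control libraries, with the letters NC in their titles, a genotype given as none and a source described as untreated, and 2 libraries with the genotype FYB1 knockdown, whose titles carry the letters sh. No other allele, agent or time is given for either group. Whether the controls carried a control construct, whether the line is 1 clone and whether cultures were separate within a group was not stated, and the p-values therefore reflect a spread among libraries that may be technical.

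Integrins are membrane receptors made of 1 alpha and 1 beta chain, and neither chain reaches the cell surface well without its partner. ITGAL with ITGB2 forms LFA-1, which binds the ICAM proteins and holds a T cell to an antigen-presenting cell or a vessel wall. ITGA4, ITGA5 and ITGA6 pair with ITGB1 to form receptors for VCAM1 and fibronectin, for fibronectin, and for laminin, while ITGAE pairs with ITGB7 and binds E-cadherin. FYB1 encodes an adaptor, also called ADAP, that links the T cell receptor to the switch of integrins from a resting to a binding state, a step that acts on the protein and not on its transcript. The question put to these genes was whether their transcripts differed when FYB1 was lowered.

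The libraries held 16693113 to 20251864 reads, as recovered from the FPKM values, where FPKM are reads scaled by exon length and a library total. This total was not the sum of reads: it was 16648943 for control 1, with 17597678 reads, and 18436617 for knockdown library 1, with 16693113. The totals had relative sizes of 0.924 and 0.931 (controls 1 and 2) and 1.02 and 1.14 (knockdown libraries 1 and 2). Medians over genes of each library's reads, relative to the genes' geometric means, gave the same sizes. FYB1 itself had 17.6 (control 1) and 20.1 FPKM (control 2), against 6.18 (knockdown library 1) and 4.53 FPKM (knockdown library 2). Its log2 fold change on the log2(FPKM + 1) scale was -1.65 ± 0.15 (SE; adjusted p = 0.0398 by limma-trend and 0.000419 by limma-voom). Without knockdown library 1 it was -1.84 (adjusted p = 0.203 by limma-trend) and without knockdown library 2 it was -1.46 (0.0555), in fits where 0 of 13172 genes were called. Of 13 fixed T cell markers, all 13 averaged at least 1 FPKM, and their summed level was 3172 and 2857 FPKM in the controls and 1718 and 2184 FPKM in the knockdown libraries. TRBC1, a constant region of the T cell receptor, held much of this gap, with 1404 and 1237 FPKM in the controls and 469 and 647 FPKM in the knockdown libraries. Of the 13 markers, 9 were lower in both knockdown libraries than in both controls, 3 (TRAC, CD3G and LAT) were higher in both, and LCK overlapped. Mitochondrial genes took 4.09% and 4.03% of control reads, against 4.92% and 5.14% in knockdown libraries 1 and 2. What part these values had in the differences of the members was not tested. Of the markers of other cells at hand, 0 of 8 myeloid genes, 1 of 5 B cell genes (CD79A), 1 of 3 platelet genes (GP1BA) and 2 of 8 epithelial and stromal genes (ITGB4 and PECAM1) reached a mean of 1 FPKM. In bulk RNA, fewer cells that express a gene and less of its RNA per cell cannot be told apart.

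The promoters of ITGA4 and ITGB1 are shown because these transcripts, from different chromosomes, kept nearly the same ratio in every library, as described further on. The stretches run from 5′ to 3′ on the coding strand and come from RefSeq's 250 bases before each annotated start (build GRCh38.p14), without bases that GENCODE 29 places in an exon of the gene. They lie at chr2:181457136-181457201 on the plus strand and chr10:32958233-32958480 on the minus strand. Capitals mark matches to an SP1 box (GGGCGG) or an ETS core (CCGGAA) on either strand.
ITGA4: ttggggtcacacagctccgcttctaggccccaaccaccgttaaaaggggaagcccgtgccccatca
ITGB1: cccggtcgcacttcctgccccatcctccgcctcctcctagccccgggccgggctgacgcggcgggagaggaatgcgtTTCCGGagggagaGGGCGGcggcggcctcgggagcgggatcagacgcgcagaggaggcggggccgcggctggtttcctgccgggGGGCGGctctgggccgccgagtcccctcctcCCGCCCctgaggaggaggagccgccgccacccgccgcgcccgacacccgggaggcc
The ITGB1 window shown held the SP1 letters 160, 89 and 58 bases before the start and the ETS letters 173 bases before it. Another ITGB1 window, at chr10:32935559-32935808 and not shown, held neither, and the ITGA4 window of 250 bases held neither. Of the 10 genes 7 had a promoter entry, ITGAL, ITGB2 and ICAM2 not, and these 7 had 11 windows. The SP1 letters were in 5 of the 11 windows (ITGB1, ITGA5, ITGA6, ICAM3 and CD58) and in 42.6% of all 35116 windows. The ETS letters were in 2 (ITGB1 and ITGA6) against 14.5%, the AP-1 letters TGANTCA in 0 against 6.57%, and the RUNX letters TGTGGT in 1 (ITGA6) against 10.98%. A match of letters describes the sequence and does not show that a factor binds.

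In the controls, the 4 chains of LFA-1 and of the ITGA4 receptor were the most abundant members. ITGA4 averaged 31.5 ± 1.41 FPKM (SD, n = 2), ITGAL 31.4 ± 0.67, ITGB2 31.1 ± 0.23 and ITGB1 28.02 ± 1.59 FPKM, and ITGA4, ITGAL and ITGB2 overlapped in their control values. These 4 lay between percentiles 87.5 and 89.3 of the 13172 tested genes by mean level. ICAM2 followed at 20.7 ± 0.49 FPKM, then ITGA5 at 12.8 ± 0.06, ICAM3 at 11.3 ± 0.48, ITGA6 at 8.05 ± 0.33, ITGAE at 6.47 ± 0.24 and CD58 at 5.18 ± 0.70 FPKM. Over all 4 libraries, neighbours in this order overlapped except ITGB1 with ICAM2 and ICAM2 with ITGA5. The lowest read number of any member was 139, for CD58 in control 1, a counting error of 8.48%, and the members above 20 FPKM in the controls had at least 774 reads in every library.

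**Figure D1:**
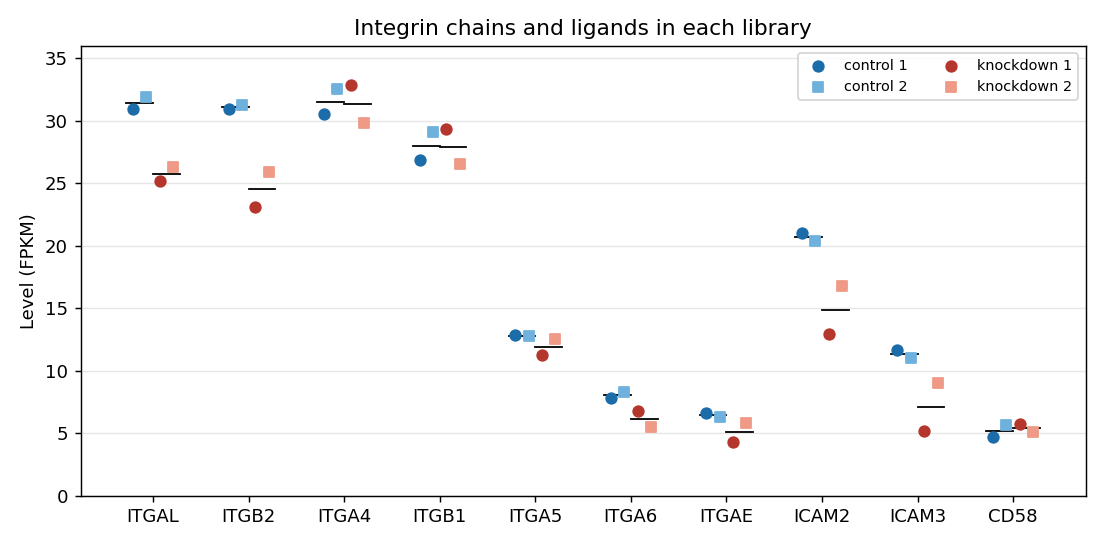
Level of each member in FPKM (vertical axis, linear from 0) in the 2 control and 2 knockdown libraries, with a line at each group mean. ITGAL and ITGB2 are lower in both knockdown libraries than in both controls, while the ITGA4, ITGB1 and CD58 values of the groups interleave.

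No member passed the threshold. By limma-trend on log2(FPKM + 1), with p-values adjusted over all 13172 tested genes by the Benjamini-Hochberg method and a threshold of 0.05, 0 of 10 members were called, where 0.205% of all tested genes were. By limma-voom on whole reads recovered from the FPKM values, also 0 of 10 were called, where 7.74% of all tested genes were. At an unadjusted p under 0.05, limma-trend gave 5 of 10, against 23.4% of tested genes in either direction. All 5 were lower in the knockdown libraries, where 14.9% of tested genes were lower by that rule. By limma-voom 6 of 10 had an unadjusted p under 0.05, against 28.4% of tested genes. The mean was lower for 9 of 10 members against 54.3% of tested genes, and the groups did not overlap, with the knockdown lower, for 7 of 10 against 34.6%. The median log2 fold change of the members was -0.29, and that of all tested genes -0.03. All 10 members averaged at least 5 FPKM. Of the 7743 genes that did so, 64.4% had a lower mean, and their median log2 fold change was -0.107. The members' median under quantile normalization was -0.10, where that of all genes was 0.01, and with totals taken as sums of reads it was -0.17, where that of all genes was 0.08.

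**Figure D2:**
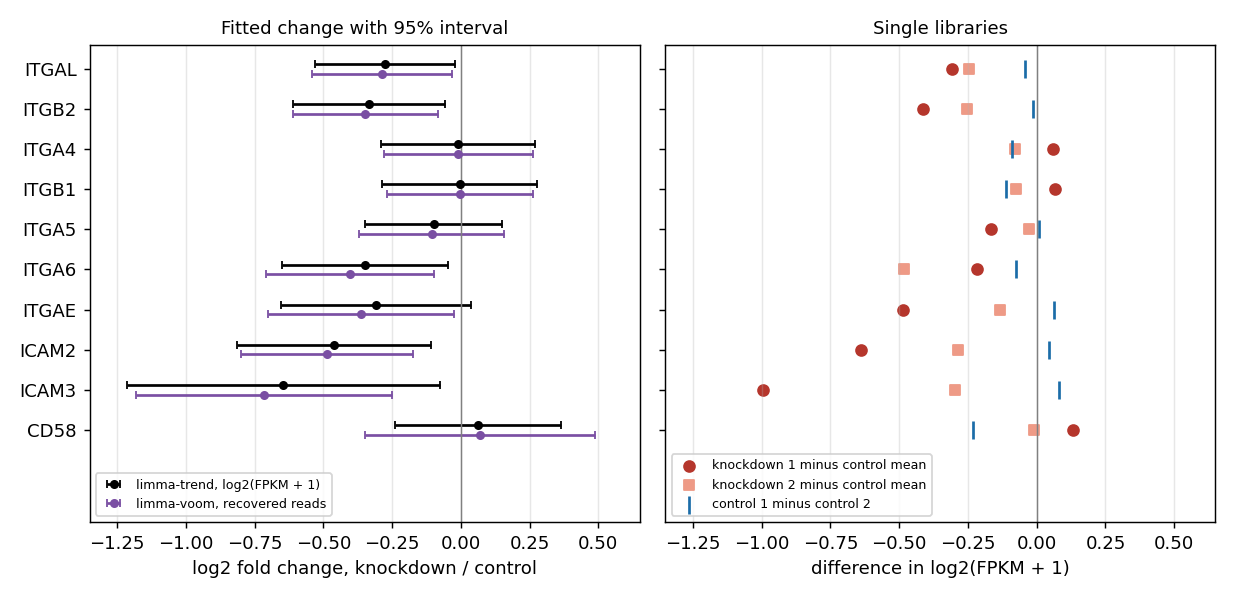
Left, log2 fold change of each member with its 95% interval from limma-trend and limma-voom. Right, the difference in log2(FPKM + 1) of each knockdown library from the control mean and of control 1 from control 2, with ICAM3 at -0.99 in knockdown library 1 and -0.30 in knockdown library 2.

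The mean levels of the LFA-1 chains were 18.0% (ITGAL) and 21.2% (ITGB2) lower in the knockdown libraries, without passing the threshold. ITGAL, the alpha chain that carries the ICAM-binding domain (chromosome 16, 30472658 to 30523185, plus strand, hg38), had 30.9 and 31.9 FPKM in controls 1 and 2 and 25.2 and 26.3 FPKM in knockdown libraries 1 and 2. ITGB2, the beta chain shared by the leukocyte integrins (chromosome 21, 44885953 to 44931989, minus strand), had 30.9 and 31.3 FPKM in the controls and 23.1 and 25.9 FPKM in the knockdown libraries. For both genes each knockdown library lay below each control. The log2 fold change of ITGAL was -0.28 ± 0.10 (SE; 95% interval -0.53 to -0.02; adjusted p = 0.192 by limma-trend) and that of ITGB2 was -0.33 ± 0.11 (-0.61 to -0.06; adjusted p = 0.168). By limma-voom the adjusted p was 0.136 for ITGAL and 0.0926 for ITGB2. The sizes depended on the scaling: ITGAL was at -0.07 under quantile normalization and -0.14 when totals were taken as sums of reads, and ITGB2 at -0.13 and -0.20.

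A ratio of genes within a library does not depend on its total. ITGB2 to ITGAL was 1.00 and 0.981 in the controls against 0.916 and 0.985 in the knockdown libraries, so the groups overlapped (under quantile normalization they did not, at 1.00 and 0.986 against 0.917 and 0.981). The largest counting error of this ratio in any library was 2.60%. ITGB2-AS1, a noncoding gene on the opposite strand that shares 303 bases of exon with ITGB2 (4.46% of its exon), had 1.08 and 0.928 FPKM in the controls and 1.91 and 1.92 FPKM in the knockdown libraries (adjusted p = 0.151 by limma-trend, 0.0627 by limma-voom). Since no source states whether strand was used, the reads of the shared bases cannot be told apart. Of the alpha chains that pair with ITGB2 in myeloid cells, ITGAM had 0.116 and 0.262 FPKM in the controls. In the knockdown libraries ITGAM had 0.0572 and 0.146 FPKM. ITGAD had at most 2 reads in any library, and ITGAX was not found in the table by symbol.

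The chains of the VCAM1 and fibronectin receptor had nearly equal means in both groups. ITGA4 (chromosome 2, 181457202 to 181536187, plus strand) had 30.5 and 32.5 FPKM in the controls and 32.9 and 29.8 FPKM in the knockdown libraries. ITGB1, the beta chain of this and many other receptors (chromosome 10, 32900319 to 33005792, minus strand), had 26.9 and 29.1 FPKM in the controls and 29.3 and 26.6 FPKM in the knockdown libraries. In both genes control 2 and knockdown library 1 were the higher ones, and the groups interleaved. The log2 fold change was -0.01 ± 0.11 for ITGA4 (95% interval -0.29 to 0.27; adjusted p = 0.960 by limma-trend) and -0.0044 ± 0.11 for ITGB1 (-0.29 to 0.28; adjusted p = 0.984). The intervals leave room for differences up to these bounds. Under quantile normalization both turned positive, 0.22 for ITGA4 and 0.20 for ITGB1, and when totals were taken as sums of reads they were 0.12 and 0.13, with none called.

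The ratio of ITGB1 to ITGA4, looked at after the values were seen, was 0.881 and 0.895 in the controls against 0.893 and 0.891 in the knockdown libraries. Its whole range was thus narrower than its largest counting error in any library, 2.49%. The ratio of ITGB2 to ITGB1, also chosen after the values were seen, was 1.15 and 1.07 in the controls against 0.787 and 0.976 in the knockdown libraries, a group mean of 1.11 ± 0.05 against 0.882 ± 0.13 (SD, n = 2 each), with no overlap. A two-sided exact permutation test of 2 against 2 libraries cannot go below p = 0.333, so none was run on these ratios. After a correction for exon length and GC content the second ratio averaged 1.06 in the controls and 0.920 in the knockdown libraries, again without overlap.

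**Figure D3:**
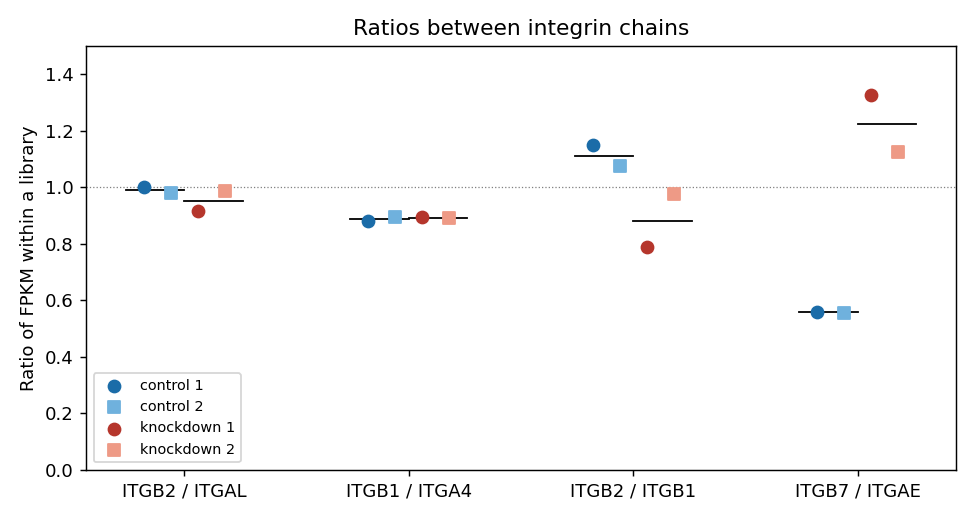
Ratio of FPKM between integrin chains within each library (linear axis from 0), with lines at the group means. ITGB1 to ITGA4 stays between 0.881 and 0.895 in all 4 libraries, ITGB2 to ITGB1 is lower in both knockdown libraries, and ITGB7 to ITGAE is higher in both.

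Of the other alpha chains of ITGB1, ITGA6 had a mean 23.8% lower and ITGA5 a mean 7.0% lower in the knockdown libraries, and neither was called. ITGA5, the fibronectin receptor chain (chromosome 12, 54395261 to 54419460, minus strand), had 12.8 FPKM in both controls and 11.3 and 12.5 FPKM in the knockdown libraries (log2 fold change -0.10 ± 0.10, 95% interval -0.35 to 0.15, adjusted p = 0.556 by limma-trend). Both knockdown values lay below the controls, and the gap between the means was close to the SD of the knockdown libraries, 0.87 FPKM. When totals were taken as sums of reads its log2 fold change was 0.03. ITGA6, the laminin receptor chain (chromosome 2, 172427354 to 172506282, plus strand), had 7.81 and 8.29 FPKM in the controls and 6.79 and 5.48 FPKM in the knockdown libraries. Its groups did not overlap and knockdown library 2 was the lowest, the only member besides ITGA4, ITGB1 and CD58 with its lower value there. The log2 fold change was -0.35 ± 0.12 (95% interval -0.65 to -0.05, adjusted p = 0.177 by limma-trend and 0.0918 by limma-voom), and without knockdown library 2 it was -0.22. The ratio of ITGB1 to the sum of its 3 alpha chains was 0.525 and 0.544 in the controls against 0.576 and 0.556 in the knockdown libraries, higher in both knockdown libraries than in both controls.

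ITGAE, known as CD103 and a marker of lymphocytes that stay in epithelia (chromosome 17, 3714628 to 3801243, minus strand), had a lower mean in the knockdown libraries while its partner chain had a higher one. It had 6.63 and 6.30 FPKM in the controls and 4.33 and 5.80 FPKM in the knockdown libraries (log2 fold change -0.31 ± 0.14, 95% interval -0.65 to 0.04, adjusted p = 0.241 by limma-trend). Knockdown library 1 held most of this difference, and without it the log2 fold change was -0.13. ITGB7, its only known beta chain and also a partner of ITGA4 in the gut-homing receptor, had 3.71 and 3.48 FPKM in the controls and 5.75 and 6.52 FPKM in the knockdown libraries. It was called higher by limma-voom (log2 fold change 0.77 ± 0.15, adjusted p = 0.0196) and not by limma-trend (0.63 ± 0.10, adjusted p = 0.1002). The limma-voom call ended without control 1 (adjusted p = 0.0878), control 2 (0.0794) or knockdown library 1 (0.0508). The ratio of ITGB7 to ITGAE was chosen after the values were seen. It was 0.560 and 0.553 in the controls against 1.33 and 1.12 in the knockdown libraries. The FPKM value was thus higher for ITGAE in both controls and for ITGB7 in both knockdown libraries. Which of these transcripts was more abundant depends on the exon lengths used and was not tested. ITGB7 shares 42.1% of its exon bases with ZNF740 on the opposite strand, which had 12.4, 12.7, 11.6 and 12.1 FPKM in controls 1 and 2 and knockdown libraries 1 and 2, so the reads of ITGB7 are uncertain. ITGAE shares 6.41% with HASPIN, which had 11.4 to 14.5 FPKM.

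Few of the other integrin chains reached the level of the test. Of 19 fixed genes 16 were in the table and 4 reached a mean of 1 FPKM. These were ITGB7, ITGA3, ITGAV and ITGB4, the last 3 with means of 3.44, 2.83 and 1.10 FPKM in the controls and 3.03, 3.37 and 1.07 FPKM in the knockdown libraries. By limma-trend 0 of 4 were called and by limma-voom 1, ITGB7, among genes of which 1.94% were called higher and 5.8% lower by limma-voom. ITGA2B and ITGB3, the chains of the platelet fibrinogen receptor, stayed between 0.418 and 0.637 FPKM in every library.

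**Figure D4:**
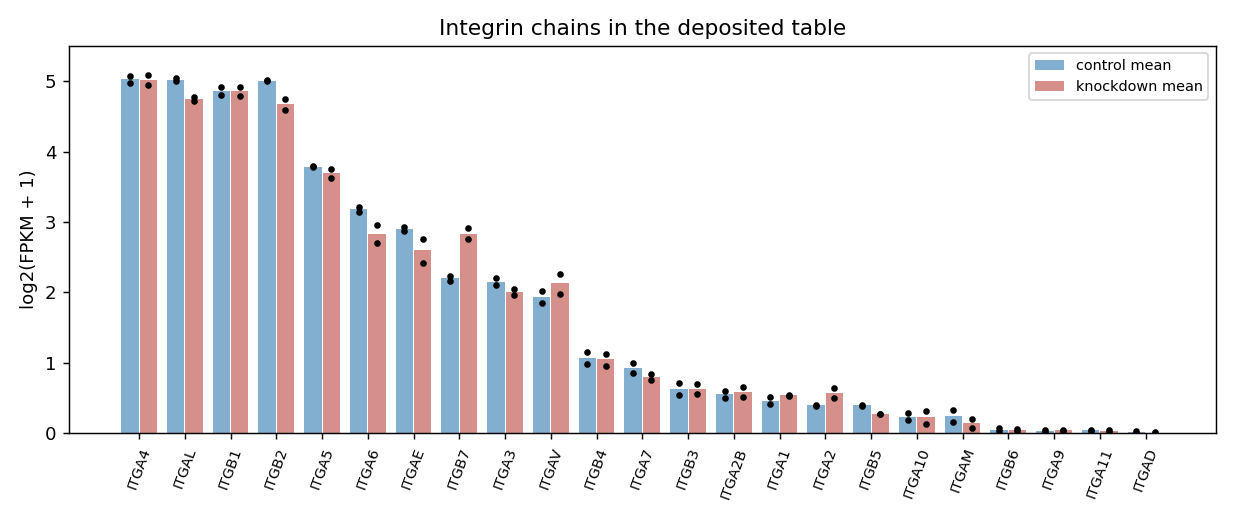
Integrin chains in the table, as log2(FPKM + 1), with bars for group means and points for single libraries. The 7 members hold the 7 highest control means, and ITGB7 has the largest gain in its group mean.

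With all 4 libraries and no correction for length and GC content, the 2 ICAM ligands had the largest log2 fold changes among the members. ICAM2, which is kept on resting lymphocytes and endothelium and binds LFA-1 (chromosome 17, 64002594 to 64020634, minus strand), had 21.0 and 20.4 FPKM in the controls and 12.9 and 16.8 FPKM in the knockdown libraries. ICAM3, the ICAM of resting leukocytes (chromosome 19, 10333776 to 10339823, minus strand), had 11.7 and 10.98 FPKM in the controls and 5.18 and 9.04 FPKM in the knockdown libraries, from 573, 544, 282 and 546 reads. Both genes were lower in each knockdown library than in each control, and both were lowest in knockdown library 1. The log2 fold change was -0.46 ± 0.14 for ICAM2 (95% interval -0.81 to -0.11; adjusted p = 0.156 by limma-trend and 0.0601 by limma-voom) and -0.64 ± 0.23 for ICAM3 (-1.21 to -0.08; adjusted p = 0.182 and 0.0607). Without knockdown library 1 these were -0.29 and -0.30, nearer to 0 than that of ITGA6 (-0.48), and without knockdown library 2 the value of ICAM3 was -0.99.

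Differences between libraries also tracked transcript length, within the controls as well as between the groups. Across the tested genes the log2 fold change had a Spearman correlation of 0.22 with exon length, which was 0.24 for knockdown library 1 and 0.15 for knockdown library 2 against the control mean and -0.26 for control 1 against control 2 (descriptions across genes, which are not independent). ICAM2 and ICAM3 have 3.24 and 2.95 kb of exon, while the integrin members have 6.01 to 7.90 kb. After the correction for exon length and GC content the log2 fold change was -0.32 for ICAM2 and -0.47 for ICAM3, with adjusted p = 0.112 and 0.155 by limma-trend. Under the same correction it was -0.43 for ITGA6 (adjusted p = 0.0726 by limma-trend), beyond ICAM2, and -0.25 for ITGAL and -0.30 for ITGB2. The correction took exon length and GC content together, so the part of either in the differences was not tested. The GC content of the longest transcript was 57.3% for ICAM2 and 61.7% for ICAM3. In the integrin members it was between 40.0% (ITGB1) and 60.0% (ITGB2). ICAM3 shares 71.2% of its exon bases with AC114271.1 on the opposite strand, which had 0.251 to 0.534 FPKM, and ICAM2 shares 26.8% with PRR29, which had 3.13 to 3.90 FPKM, so some reads of both cannot be assigned with certainty.

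CD58, the ligand of the adhesion receptor CD2, had the shortest exon length of the members, 1.78 kb (chromosome 1, 116514535 to 116571039, minus strand). Its level was 4.68 and 5.68 FPKM in the controls and 5.75 and 5.12 FPKM in the knockdown libraries. The groups interleaved (log2 fold change 0.06 ± 0.12, 95% interval -0.24 to 0.36, adjusted p = 0.769 by limma-trend). Without control 1 the sign turned, to -0.06. CD2 itself averaged 3.37 ± 0.40 FPKM in the controls and 2.07 ± 0.41 FPKM in the knockdown libraries and was not called (adjusted p = 0.151 by limma-trend). CD48, a weaker partner of CD2, averaged 18.1 and 18.8 FPKM.

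With knockdown library 2 left out, limma-voom called 5 of the 10 members, all lower: ICAM3 (adjusted p = 0.00596), ICAM2 (0.00817), ITGB2 (0.0155), ITGAE (0.0163) and ITGAL (0.0372). That fit has 1 knockdown library, assumed to vary like the controls, and called 29.4% of all tested genes. Without control 2 limma-voom called ICAM3 alone (adjusted p = 0.0427), where 3.77% of tested genes were called. It called 0 of 10 without control 1, where 1.03% of tested genes were called, and 0 of 10 without knockdown library 1, where 0.774% were. The members' median difference from the control mean on the log2(FPKM + 1) scale was -0.26 for knockdown library 1, against -0.19 for the other.

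Among other ligands and partners of integrins, CD99, JAM3, ICAM5, PECAM1 and CD151 fell and CD226 rose by limma-voom. Of 33 fixed genes 30 were in the table and 23 were tested, with a median log2 fold change of -0.33 (-0.14 under quantile normalization, -0.20 when totals were taken as sums of reads). By limma-trend 0 of 23 were called, and 12 had an unadjusted p under 0.05, against 23.4% of tested genes. By limma-voom 6 of the 23 fell and 1 rose, where 5.8% of all tested genes were called lower and 1.94% higher. CD99, a glycoprotein of transmigration, fell from 85.9 ± 4.31 to 53.3 ± 12.1 FPKM (adjusted p = 0.0297 by limma-voom). ICAM5 and JAM3 fell from 5.82 to 3.76 and from 66.6 to 44.4 FPKM (adjusted p = 0.0316 and 0.0268 by limma-voom). CD226, an activating receptor that associates with LFA-1, rose from 3.62 ± 0.16 to 6.67 ± 1.32 FPKM (adjusted p = 0.0122 by limma-voom). PECAM1 and the tetraspanin CD151 were also called, lower at adjusted p = 0.0376 and 0.0373 by limma-voom. ICAM5 lies beside ICAM1 and ICAM3 on chromosome 19, and ICAM1, the inducible ligand of LFA-1, averaged 4.18 ± 0.71 FPKM in the controls and 3.65 ± 0.46 FPKM in the knockdown libraries without a call. VCAM1 and ICAM4 were not found in the table by symbol, and CD44 was at 0.0357 to 0.103 FPKM.

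The fixed list for integrin activation, which also holds the dampening adaptor DOK2 and focal adhesion genes, had limma-voom calls in both directions. Its counts by limma-trend at an unadjusted p and by lower mean were near those of all genes. Of 36 fixed genes 35 were in the table and 33 were tested, 16 with lower and 17 with higher means, where 54.3% of all tested genes had a lower mean (median log2 fold change 0.05, and 0.19 under quantile normalization). By limma-trend 0 of 33 were called, with 8 at an unadjusted p under 0.05, against 23.4% of tested genes. By limma-voom 4 of the 33 rose and 1 fell, where 1.94% of all tested genes were called higher and 5.8% lower. ACTN1, the actin crosslinker that binds beta chain tails, rose from 11.5 ± 0.16 to 17.4 ± 0.75 FPKM (adjusted p = 0.0200 by limma-voom). DOK2, an adaptor that dampens receptor signals, rose from 25.9 to 38.8 FPKM, and PTK2B and PXN, a focal adhesion kinase and the scaffold paxillin, from 11.04 to 15.1 and from 4.83 to 6.79 FPKM (adjusted p = 0.0335, 0.0411 and 0.0438 by limma-voom). PARVG, the leukocyte parvin, fell from 11.1 to 7.85 FPKM (adjusted p = 0.0313 by limma-voom). Of the 12 genes of these last lists that limma-voom called, CD226 was called in each of the 4 limma-voom fits that left out 1 library. With the correction for length and GC content its log2 fold change by limma-trend went from 0.72 to 0.46 (adjusted p = 0.0641). The exons of CD226 total 13.6 kb, and the GC content of its longest transcript is 36.7%. The calls of 10 of the 12 ended without control 1 and also without control 2, and those of CD151, ICAM5, PECAM1 and PARVG ended with totals taken as sums of reads too.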

How the data were processed

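The deposited table holds FPKM values of the authors for 28274 genes by Ensembl ID in 4 libraries. Alignment used HISAT2 2.0.5 and hg38 per the submitters' processing notes, and per the labels' protocols, total RNA was taken up in Trizol and made into TruSeq libraries. No counting program, annotation or use of strand was named. All IDs matched GENCODE 29, whose exon lengths turned the FPKM of each gene into whole reads (within 0.001 of a whole number). Genes averaging 1 FPKM or more over the 4 libraries (13172) were tested on log2(FPKM + 1) with limma-trend (limma 3.58.1, R 4.3.3), knockdown against control, with Benjamini-Hochberg adjusted p-values and a threshold of 0.05. A model of counts, limma-voom on the recovered reads, and a correction for exon length and GC content were alternatives, and limma-trend and limma-voom were checked on simulated data. A difference is thus understated for low genes by the pseudocount of 1, while counting error alone is quoted as the inverse square root of the reads. Promoters came from RefSeq (GRCh38.p14). By rule the text names all 10 members, FYB1 and, of each gene list, up to 4 genes called in each direction by size of change. Other names, PECAM1 and CD151 among them, were chosen after their values were seen, and 1 gene among the called ligands and partners is not reported here. The members, the gene lists and the limma-voom comparisons without 1 library were chosen with earlier results of these data known.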

Additional observations from a re-analysis of the deposited data

How the results depend on the processing

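Limits come first from 2 libraries a group: leaving out 1 library in turn gave between 0 and 406 called genes by limma-trend, against 27 with all 4. The count was 0 with every gene above 0 tested, 181 at a mean of at least 5 FPKM, 45 under quantile normalization, 76 when totals were taken as sums of reads, 169 with the correction for length and GC content, and 1019 by limma-voom. Of the members, ITGAL, ITGB2, ITGA6, ITGAE, ICAM2 and ICAM3 had a negative log2 fold change under every alternative run. The members' median was -0.21 with a pseudocount of 5, -0.10 under quantile normalization, -0.17 for sums of reads, and it ran from -0.29 to -0.19 without 1 library. ITGA4 turned positive under quantile normalization (0.22) and for sums of reads (0.12) and ran from -0.079 to 0.058 without 1 library, positive (0.034) without control 2. ITGB1 did likewise, with 0.20, 0.13, a range of -0.074 to 0.065 and 0.051. ITGA5 turned positive for sums of reads (0.029), and CD58, which ran from -0.055 to 0.18 without 1 library, turned negative without control 1 or knockdown library 1 (-0.0093). The ratio of ITGB1 to its 3 alpha chains, knockdown over control, was 1.06 and under quantile normalization 1.09. The cause was not tested.

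Among the other integrin chains limma-trend called 1 with the correction for length and GC content and limma-voom called 1 (0 to 1 without 1 library). Among ligands and partners limma-trend called 1 with that correction and 0 to 1 without 1 library, and limma-voom 7 (1 to 14 without 1 library). Among activation genes limma-trend called 1 with that correction, 1 at a mean of at least 5 FPKM and 1 for sums of reads, and limma-voom 5 (0 to 14 without 1 library). Of the members limma-voom called 0 to 5 without 1 library, in fits that called 102 to 3877 genes in all. The limma-voom fits without 1 library were chosen after seeing the data.

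The labels do not say that libraries of the same number share a culture or day. The deviations of control 1 and knockdown library 1 from their group means correlated at -0.21 across genes. With 2 libraries a group this value cannot decide whether such libraries were paired. With the replicate number as a block limma-trend called 781 of 13172 tested genes. Among them were 1 of 10 members (ICAM3, adjusted p = 0.0184 by limma-trend) and 1 of 4 other integrin chains. The calls also took in 2 of 23 ligands and partners and 1 of 33 activation genes. With the pairing crossed, an alternative chosen after seeing the data, limma-trend called 1910 of 13172 tested genes. These held 2 of 10 members, 1 of 4 other integrin chains, 8 of 23 ligands and partners and 5 of 33 activation genes.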
